A study of Drosophila melanogaster with 2 samples.

Results

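The 34 genes described here act in neural development of the fly, and they were taken as a list of symbols from the 13834 protein-coding genes counted. They fell into 9 groups by role, with 8 proneural genes, 4 temporal genes, 2 SoxB genes, 3 columnar genes, 3 glial genes, 3 neuronal RNA-binding genes, 3 neuroblast and precursor genes, 2 eye and head genes and 6 neuronal identity genes. The working name for the list was transcription factor genes, but elav, fne and Rbp9 encode RNA-binding proteins, so the list is called the neural fate genes here. All 34 symbols were found in the Ensembl annotation.

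Chromatin immunoprecipitation followed by sequencing mapped MESR4, which has PHD-type and other zinc fingers and acts in the nucleus, in whole embryos of Drosophila melanogaster. There was 1 group, of the transgenic strain MESR4-GFP, in which MESR4 carries green fluorescent protein at its C terminus, and embryos of both sexes aged 0 to 24 h were pooled. It held 2 biological replicates, numbered 1 and 3, and no second genotype, stage or treatment, so the comparisons below are between genes and between replicates. The free text of the labels describes input material, whereas the antibody label names MESR4 and the deposited listing shows calls made against another control alignment, so both were read as MESR4 immunoprecipitates.

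A promoter peak was a summit of the authors' thresholded list within 500 bp of any transcription start site (TSS) of the gene. That list held 6415 summits and was made by the irreproducible discovery rate, a measure of how alike peaks rank between sets of calls. How replicates 1 and 3 entered that step is not known here, so a summit in the list need not rank alike in both. The same 6415 summits were the strongest of a deeper list called on both replicates together, and each replicate had a deeper list of its own. Each deeper list held 30000 summits and was meant to include background, so a weak summit in it is not a call of binding. Signal, the authors' score for a peak, ran from 30.73 to 3171 in the list of both replicates, from 20.87 to 2118 in that of replicate 1 and from 15.47 to 1081 in that of replicate 3. Lists were therefore compared by rank, with rank 1 the strongest summit. How deeply each library was read is not known here.

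In the fly embryo, neural stem cells called neuroblasts arise from the neuroectoderm where proneural proteins are active, and Notch signalling limits how many cells take that fate. Columnar genes and SoxB genes pattern the neuroectoderm, temporal factors follow one another in dividing neuroblasts, and homeodomain proteins then fix the identity of single neurons. Glial cells are specified by the gcm genes and repo. Most of these genes are switched on in restricted sets of cells. In whole embryos a summit present in few cells and a weak summit in many cells cannot be told apart.

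The promoters that carry the contrast are printed first, as the sense strand read 5′ to 3′ from the release 6 genome (dm6). Each TSS window runs from 170 bases before the TSS to 29 bases after it, so the TSS is base 171 of 200. Capitals mark any of 6 letter strings on either strand, namely GGTCACAC (Motif 1), TATCGATA (the DNA replication-related element, DRE), TCAGT (the initiator core), TATAAA (the TATA box), GAGAG (the GAGA element) and CAGCTG (an E-box). None of the 6 strings is contained in another, though copies of 1 string can overlap. The genes with a promoter peak are elav and pros. The elav window, at its canonical TSS, is chrX:523197-523396 on the minus strand. The pros window, at an internal TSS, is chr3R:11372618-11372817 on the plus strand. The elav summit lay beyond its TSS window, so the bases around it, chrX:523379-523579, are shown as well.
elav TSS: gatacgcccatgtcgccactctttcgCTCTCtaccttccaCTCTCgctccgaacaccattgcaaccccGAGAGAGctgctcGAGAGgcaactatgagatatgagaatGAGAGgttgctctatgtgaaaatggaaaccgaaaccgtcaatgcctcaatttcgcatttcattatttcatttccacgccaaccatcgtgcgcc
elav summit: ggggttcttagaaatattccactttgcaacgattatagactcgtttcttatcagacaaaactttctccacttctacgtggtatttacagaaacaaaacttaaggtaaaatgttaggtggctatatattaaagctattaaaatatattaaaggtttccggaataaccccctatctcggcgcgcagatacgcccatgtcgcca
pros internal TSS: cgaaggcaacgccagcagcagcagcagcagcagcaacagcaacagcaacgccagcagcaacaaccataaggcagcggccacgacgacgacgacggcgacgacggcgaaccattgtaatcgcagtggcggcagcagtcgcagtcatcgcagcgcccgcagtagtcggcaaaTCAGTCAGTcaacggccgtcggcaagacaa

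The next 4 windows belong to genes whose weaker summits lay near the TSS in both replicates, and none of the 4 had a promoter peak. They are vnd at chrX:581951-582150 (plus), exex at chr3L:7948016-7948215 (plus), tup at chr2L:18881232-18881431 (minus) and SoxN at chr2L:8825475-8825674 (plus).
vnd: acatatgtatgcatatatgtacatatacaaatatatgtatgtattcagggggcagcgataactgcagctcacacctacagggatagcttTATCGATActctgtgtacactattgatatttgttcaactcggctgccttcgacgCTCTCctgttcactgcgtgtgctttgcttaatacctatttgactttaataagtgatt
exex: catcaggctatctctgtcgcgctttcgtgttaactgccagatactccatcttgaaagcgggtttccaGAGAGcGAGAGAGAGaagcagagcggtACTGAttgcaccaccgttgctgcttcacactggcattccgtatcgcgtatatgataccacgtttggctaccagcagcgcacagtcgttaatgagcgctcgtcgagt
tup: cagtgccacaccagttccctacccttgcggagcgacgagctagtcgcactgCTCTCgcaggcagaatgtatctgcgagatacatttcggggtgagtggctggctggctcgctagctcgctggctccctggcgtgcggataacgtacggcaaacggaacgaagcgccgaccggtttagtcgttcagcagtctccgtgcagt
SoxN: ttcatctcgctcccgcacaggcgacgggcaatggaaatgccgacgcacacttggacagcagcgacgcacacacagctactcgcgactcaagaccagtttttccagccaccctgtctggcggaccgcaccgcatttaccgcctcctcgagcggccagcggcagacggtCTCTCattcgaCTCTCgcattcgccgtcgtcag

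The last 3 windows belong to proneural genes with no promoter summit in any list, namely ac at chrX:369861-370060 (plus), sc at chrX:395890-396089 (plus) and amos at chr2L:18596892-18597091 (minus).
ac: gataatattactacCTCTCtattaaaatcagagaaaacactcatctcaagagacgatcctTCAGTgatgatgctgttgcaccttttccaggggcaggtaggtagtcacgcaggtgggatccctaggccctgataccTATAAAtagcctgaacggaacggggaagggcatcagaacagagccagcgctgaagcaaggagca
sc: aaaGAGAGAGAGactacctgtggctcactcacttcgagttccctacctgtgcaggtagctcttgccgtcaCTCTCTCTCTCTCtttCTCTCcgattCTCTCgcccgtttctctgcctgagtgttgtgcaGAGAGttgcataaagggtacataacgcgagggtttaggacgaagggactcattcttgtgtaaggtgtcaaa
amos: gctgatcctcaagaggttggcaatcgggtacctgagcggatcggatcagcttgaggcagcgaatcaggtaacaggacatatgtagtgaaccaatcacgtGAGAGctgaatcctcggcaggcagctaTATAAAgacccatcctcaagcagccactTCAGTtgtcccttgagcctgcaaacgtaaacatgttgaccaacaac

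MESR4 peaks were sparse at the promoters of neural fate genes. A promoter peak was found at 2 of the 34, elav and pros, or 5.88%, beside 5889 of 13834 protein-coding genes, or 42.6%. Taken from the strongest 6415 summits of a single replicate, the count was 1 in replicate 1 (elav), beside 41.7% of all genes, and 3 in replicate 3 (elav, pros and grh), beside 43.3%. Counting summits of any rank, the list of both replicates had a promoter summit at 20 of the 34 (58.8%), elav and pros included, beside 62.5% of all genes. The list of replicate 1 had one at 22 (64.7%), beside 61.7%, and that of replicate 3 at 19 (55.9%), beside 62.7%. The neural fate genes thus came near the share of all genes only once weak summits were counted. No p-value is attached to these shares, because the genes are not replicates and the list was drawn up with results of these data known.

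The strongest promoter summit of a neural fate gene had a median rank of 25758 in the list of both replicates, beside 10664 for all genes, when a gene without a summit is placed after the last rank. The medians were 18221 beside 11379 in replicate 1 and 24714 beside 9946 in replicate 3. Ranks 1 to 6415 of the list of both replicates held the promoter summits of 2 neural fate genes, and of 42.6% of all genes. Ranks 6416 to 15000 held those of 7 (20.6%), beside 11.7% of all genes, and ranks 15001 to 30000 those of 11 (32.4%), beside 8.22%. On the inner side of the threshold stood pros at rank 6357, and the nearest neural fate gene on the outer side was vnd at rank 9646.

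**Figure D1:**
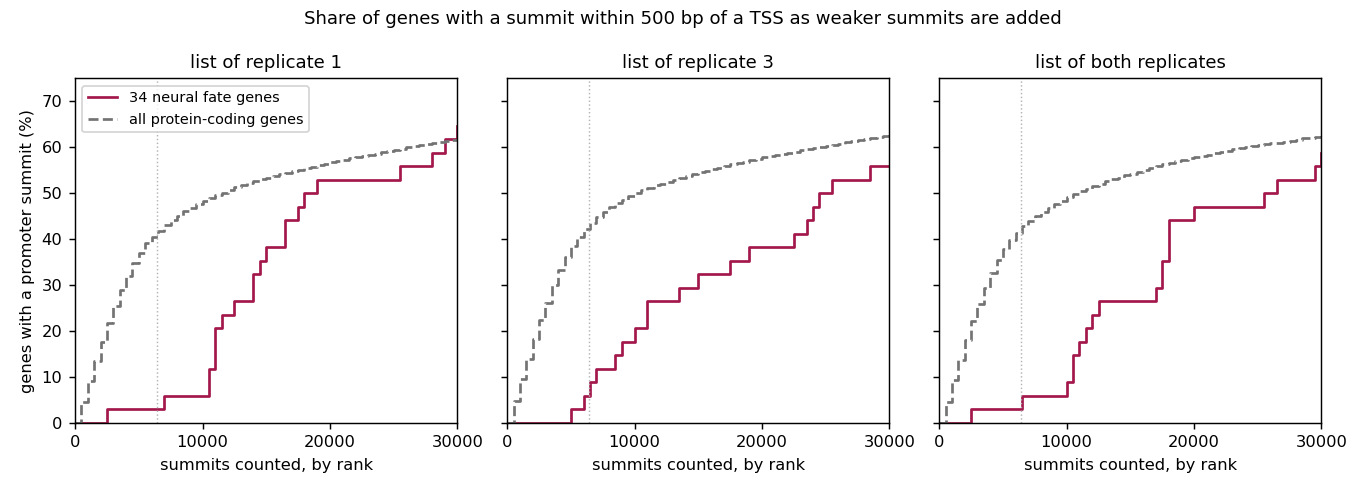
Share of genes with a promoter summit (y axis, percent) as summits are counted from the strongest to the weakest (x axis, rank), for the 34 neural fate genes (solid line) and all 13834 protein-coding genes (dashed line), in the list of replicate 1, of replicate 3 and of both replicates. The dotted line marks rank 6415; at the full 30000 summits of both replicates the lines reach 58.8% and 62.5%.

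elav encodes an RNA-binding protein found in nearly all postmitotic neurons, and its summit was the strongest of the 34. It had a signal of 458.0 in the list of both replicates (rank 2487), 366.3 in replicate 1 (rank 2008) and 88.99 in replicate 3 (rank 4510). The summit lay at chrX:523479, 253 bp upstream of the canonical TSS, with the replicate summits 263 and 211 bp upstream and 52 bp from each other. Both replicates therefore placed it above rank 6415. The same TSS position is annotated for the non-coding gene lncRNA:enrr, so the summit cannot be assigned to elav alone. A second thresholded summit lay in an elav intron, 594 bp downstream of the TSS, with a signal of 262.8 (rank 4690) in the list of both replicates and ranks of 4814 in replicate 1 and 4143 in replicate 3. The replicates ordered the pair differently, since the upstream summit ranked higher in replicate 1 and the intronic one in replicate 3. The gene arg spans this stretch on the opposite strand.

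pros encodes a homeodomain protein that neuroblasts pass to the smaller daughter cell, where it ends self-renewal. Its summit had a signal of 178.2 in the list of both replicates (rank 6357), 127.1 in replicate 1 (rank 6507) and 66.26 in replicate 3 (rank 5778). The summit in replicate 1 thus fell outside the strongest 6415 of that list. It lay at chr3R:11372811, 23 bp downstream of an internal TSS, and the replicate summits were 10 and 8 bp downstream and 2 bp apart. That TSS is 1 of 4 annotated for pros and lies within coding sequence of longer pros transcripts. No list had a summit within 500 bp of the canonical TSS at chr3R:11328480. In the printed window an initiator core starts at the internal TSS itself, and a second copy starts 4 bases later.

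The 79148 bp of pros held another repeated summit, in an exon at chr3R:11393013, with rank 7307 in the list of both replicates, 8298 in replicate 1 and 6505 in replicate 3. The strongest summit in that stretch of chromosome, at chr3R:11408045 with a signal of 576.0 (rank 1683), lay past the end of pros and 127 bp from the TSS of mRpL40, a mitochondrial ribosomal protein gene. Other summits within pros lay near KP78a and KP78b, which are nested in it, the closest being 59 bp from a TSS (rank 9579).

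**Figure D2:**
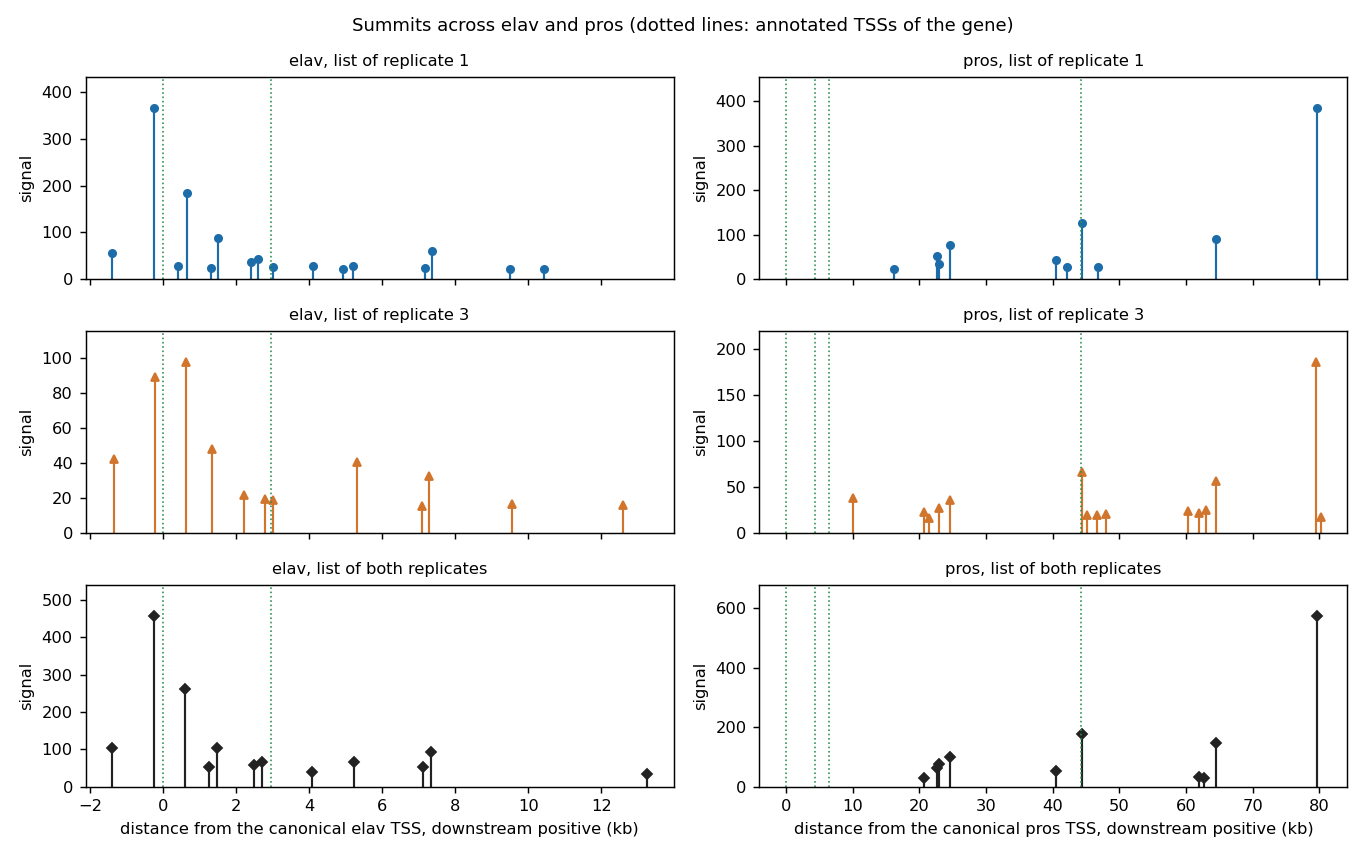
Summits across elav (left) and pros (right) by distance from the canonical TSS (x axis, kb, downstream positive) and the authors' signal (y axis, a scale of its own in each list), in the list of replicate 1, replicate 3 and both replicates from top to bottom. Green dotted lines are annotated TSSs; the elav pair of 458.0 and 262.8 stands at the start of the gene, while the canonical pros TSS at 0 has no summit and the tall summit at the right of pros is that of mRpL40.

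The replicate lists were then compared gene by gene. A promoter summit was in both replicate lists at 15 of the 34 neural fate genes (44.1%), beside 57.1% of all genes. Replicate 1 alone had one at 7 (20.6%), beside 4.66%, and replicate 3 alone at 4 (11.8%), beside 5.66%. Neither replicate had one at 8 (23.5%), beside 32.6%. Summits carried by a single replicate were thus 11 in number, and all 11 were below rank 6415. The shares of all genes include the 42.6% with a promoter peak, which only 2 of the 34 had. Among genes without a peak, summits were in both replicate lists at 40.6% of neural fate genes and 25.5% of all. Single-replicate shares among genes without a peak were not counted. Of the 15 genes with summits in both, 13 had a pair of promoter summits within 200 bp of each other, the exceptions being eya and ap. The share of all genes with such a pair was not counted, so the 13 have no background here.

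**Figure D3:**
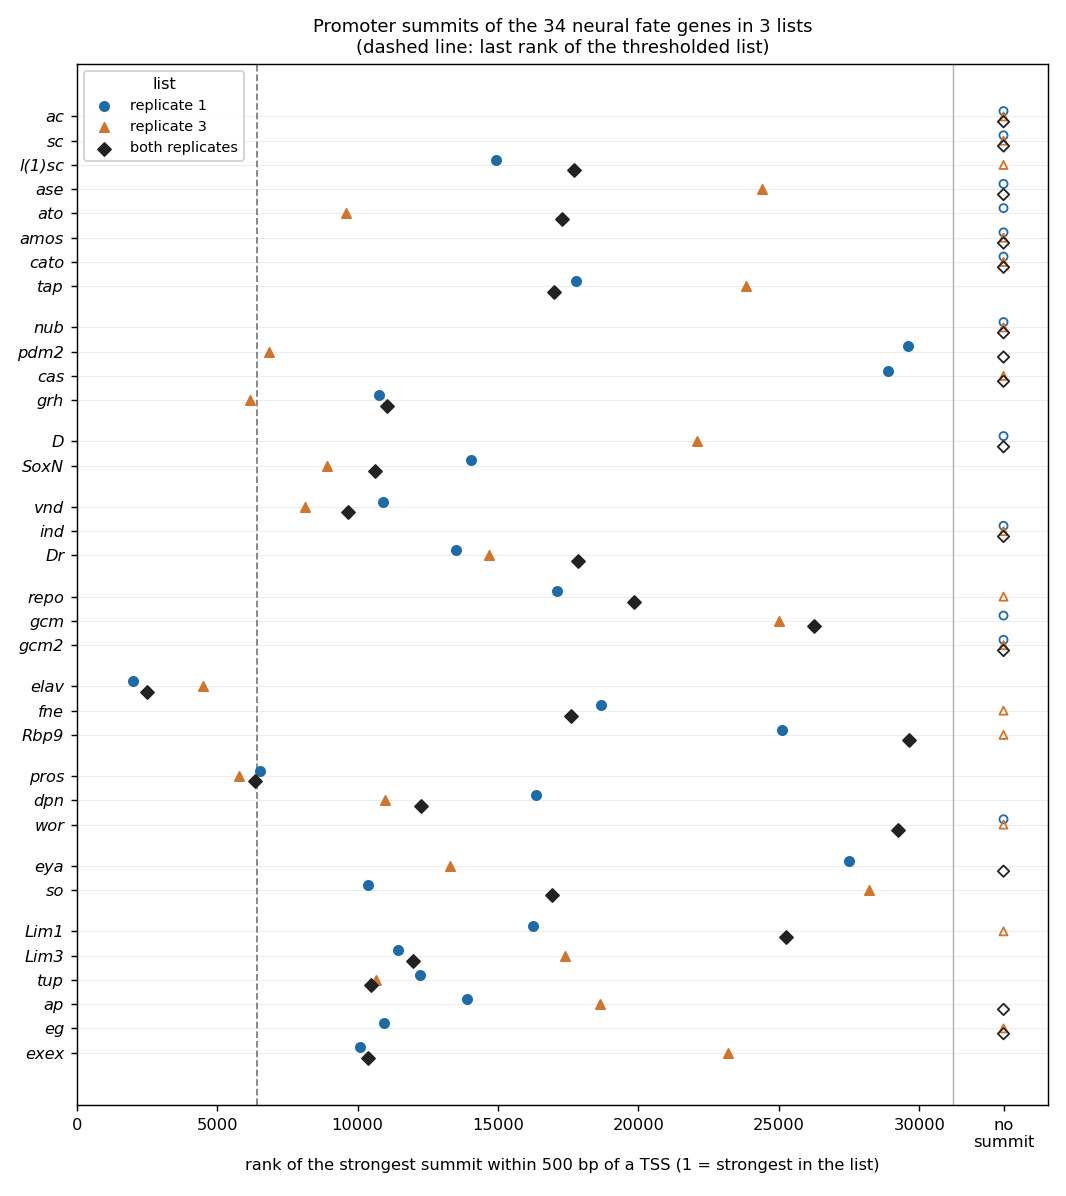
Rank of the strongest promoter summit (x axis, 1 is the strongest) of each of the 34 neural fate genes (y axis, grouped by role) in the list of replicate 1 (circles), replicate 3 (triangles) and both replicates (diamonds). Open symbols at the right mark a list with no promoter summit; elav and pros stand left of the dashed line at rank 6415 in the list of both replicates, and grh does so in replicate 3 alone.

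Proneural genes encode basic helix-loop-helix activators that start neural fate. None of the 8 had a promoter peak, beside 42.6% of all genes and 24.7% of those without another protein-coding TSS within 1000 bp. No list had a promoter summit at ac, sc, amos or cato; ac and sc promote sensory bristle and central neuroblast fate, amos drives olfactory precursors, and cato is an ato relative. The neuroblast gene l(1)sc had a summit 98 bp downstream of its TSS at rank 17704 of the list of both replicates, from replicate 1 (rank 14937) and with none in replicate 3. In contrast, ase, which is expressed in neuroblasts, had one in replicate 3 only (rank 24416). The gene for chordotonal organs and photoreceptors, ato, had a summit at rank 9594 in replicate 3, none in replicate 1 and rank 17290 in the list of both. For tap, another gene of this class, both replicates had a weak summit, at ranks 17768 and 23817, with rank 17008 in the list of both.

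The genes ac, sc, l(1)sc and ase lie together in the achaete-scute complex. From ac to ase, 93.1 kb of chrX (370031 to 463176), no thresholded summit was found, beside 0.48 per 10 kb over all arms. The list of both replicates had 8 summits there, replicate 1 had 6 and replicate 3 had 5, or 0.859, 0.644 and 0.537 per 10 kb, beside 2.25 per 10 kb over all arms in each list. The strongest of the 8 ranked 14725, 2668 bp from ase. The nearest thresholded summit to ac was 90555 bp away, at ewg, and that of sc (80374 bp), l(1)sc (66713 bp) and ase (15687 bp) was the summit at ebo.

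Temporal factors are expressed in turn in neuroblast lineages. Among the 4 listed here, all without a promoter peak, 1 had a promoter summit in the list of both replicates, namely grh. That list had one at 34.7% of all genes without a peak. The grh protein marks late neuroblasts and also builds epidermal barriers. The strongest promoter summit of grh ranked 11028 in the list of both replicates, 10774 in replicate 1 and 6172 in replicate 3. In replicate 3 alone it would thus stand among the strongest 6415. The strongest promoter summits of the replicates were at different TSSs of grh. The gene still had a pair of promoter summits, 1 per replicate, within 200 bp of each other. In replicate 3 the TSS nearest to the strongest summit was that of the antisense gene asRNA:CR45270, 19 bp away. grh also had a thresholded summit in an intron, at chr2R:17804917, 2050 bp from its nearest TSS, with a signal of 263.1 (rank 4685) and ranks of 4276 in replicate 1 and 6983 in replicate 3.

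The POU gene pdm2 had a summit near an internal TSS at rank 6848 in replicate 3 and at rank 29610 in replicate 1, 181 bp apart, and none in the list of both. Its neighbour nub, also a POU gene, had no promoter summit in any list. The 98.7 kb from nub to pdm2 held no thresholded summit, beside 0.48 per 10 kb over all arms. The list of both replicates had 1 summit there, replicate 1 had 4 and replicate 3 had 1. These were 0.101, 0.405 and 0.101 per 10 kb, beside 2.25 over all arms in each list. The zinc finger gene cas had a promoter summit in replicate 1 only, at rank 28901.

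The SoxB genes SoxN and D encode HMG-box proteins of the early neuroectoderm. SoxN had a summit within 60 bp of its TSS in every deeper list, at rank 10622 in that of both replicates, 14022 in replicate 1 and 8911 in replicate 3. D had one in replicate 3 alone (rank 22093). Columnar genes divide the neuroectoderm along the dorsoventral axis. The ventral gene vnd, the nearest to the threshold from outside in the list of both replicates (rank 9646), had ranks of 10917 in replicate 1 and 8137 in replicate 3, where other neural fate genes were nearer, and all 3 summits were within 92 bp of an alternative TSS. The dorsal gene Dr had ranks of 17856, 13516 and 14687 in the same order of lists, and the intermediate gene ind had no promoter summit in any list.

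Of the 3 glial genes, all without a promoter peak, none had a promoter summit in both replicate lists, beside 25.5% of all such genes. repo, the homeodomain gene of lateral glia, had one in replicate 1 (rank 17095), and gcm, the switch gene for glial fate, had one in replicate 3 (rank 25012). In the list of both replicates these genes ranked 19834 and 26265. gcm2, the gcm paralogue, had none. The 33.2 kb from gcm to gcm2 held no thresholded summit, beside 0.48 per 10 kb over all arms. It held 6 summits of the list of both replicates, or 1.81 per 10 kb, beside 2.25 over all arms. The strongest of the 6 (rank 8608) was 2286 bp from CG4382. The elav relatives fne and Rbp9 had promoter summits in replicate 1 only, at ranks 18674 and 25123, and in the list of both at ranks 17611 and 29644. These ranks are far from the 2487 of elav, which codes for a protein of the same family.

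Of the neuroblast genes, dpn, which encodes a repressor that maintains self-renewal, had a summit within 76 bp of its TSS in every deeper list, at rank 12259 in that of both replicates, 16350 in replicate 1 and 10966 in replicate 3. The Snail-family gene wor had a summit only in the list of both replicates (rank 29240). The eye and head genes so and eya, whose proteins act as a complex, had weak summits in both replicates. For so the ranks were 16935 in the list of both, 10367 in replicate 1 and 28223 in replicate 3. For eya they were 27515 in replicate 1 and 13302 in replicate 3, at different TSSs, with none in the list of both.

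None of the 6 neuronal identity genes had a promoter peak. Weak promoter summits were in both replicate lists at 4 of the 6, beside 25.5% of all genes without a promoter peak. The motor neuron gene exex had ranks of 10383 in the list of both replicates, 10096 in replicate 1 and 23196 in replicate 3, the first of these 3 bp from the TSS. tup, the Islet homologue, had ranks of 10483, 12230 and 10660 in the same order of lists. Lim3, a LIM homeodomain gene of motor neurons, had 11971, 11441 and 17381, but in all 3 lists the summit was closer to the TSS of lncRNA:CR44905, at 53, 45 and 129 bp, than to its own. ap, a LIM gene of interneurons and the wing, had summits at ranks 13897 and 18614 in replicates 1 and 3, 767 bp apart. Lim1, another LIM homeodomain gene, and eg, a zinc finger gene of serotonergic lineages, had one in replicate 1 only, at ranks 16240 and 10946.

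The placement of neural fate genes in the genome bears on how the counts can be read. All 34 lacked another protein-coding TSS within 1000 bp, as did 57.3% of all genes, and among those isolated genes 24.7% had a promoter peak. The 2 of 34 thus also stood below the share of isolated genes. The nearest thresholded summit was at a median of 10698 bp from a TSS of a neural fate gene, beside 2158.5 bp over all genes. It was over 10000 bp away for 18 neural fate genes (52.9%), beside 30.9% of all genes. For tup it was 9034 bp from the TSS, at rank 5863, with tup still the gene of the nearest coding TSS. The median gene length was 4085.5 bp, beside 2187.5 bp.

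Among genes without a promoter peak, a weaker promoter summit in the list of both replicates was found at 18 of 32 neural fate genes (56.2%), beside 34.7% of all such genes. Summits in both replicate lists were at 13 of 32 (40.6%), beside 25.5%. Among isolated genes without a peak, the weaker summit was at 32% of all genes. GC content moved with this measure. The median GC within 100 bp of the canonical TSS was 51.7% for the neural fate genes, 41.3% for all genes, 39.8% for genes with a promoter peak and 43.3% for genes without one. Isolated genes without a peak had a median of 47.8% GC where a weaker summit was present and 41.8% where it was not. With GC at or above 51.7%, the weaker summit was at 11 of 17 neural fate genes (64.7%), beside 52.4% of isolated genes. The thresholded promoter peak was then at 1 of 18, beside 12.8% of isolated genes. The part of GC content in the summits was not tested beyond these values.

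The position of the weaker summits was also recorded. In the list of both replicates the summit lay downstream of the TSS at 7 of the 18 neural fate genes with a weaker summit (38.9%) and upstream at 11. Over isolated genes without a promoter peak, 51.1% were downstream. The summit was within 100 bp of the TSS at 10 of the 18 (55.6%), beside 48.7% of isolated genes without a promoter peak.

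Away from promoters, thresholded summits were inside 2 of the 34 genes, elav and grh (5.88%), beside 2.54% of all genes. The list of both replicates had summits inside 18 genes (52.9%), beside 38.2%, replicate 1 inside 17 (50%), beside 36%, and replicate 3 inside 20 (58.8%), beside 44.9%. Gene length differs between these sets, so a density is the closer measure. The list of both replicates had 1.47 summits per 10 kb of neural fate gene beyond 500 bp from a TSS, beside 1.77 over all genes. The densities were 1.31 beside 1.72 in replicate 1, 1.81 beside 1.94 in replicate 3 and 0.0475 beside 0.0549 in the thresholded list. The density within neural fate genes was the lower one in the 3 deeper lists, and in the thresholded list it rested on 2 summits. Of the 62 such summits in the list of both replicates, 38 were in introns and 24 in exons. The same split over all genes was not counted, and some of the 62, such as those in elav, also lay within another gene. After elav, grh and pros, the highest was in Lim1, with rank 8875 in the list of both replicates, 8796 in replicate 1 and 11640 in replicate 3.

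Other genes of neural development were counted in 5 lists. Genes for the asymmetric division of neuroblasts had a promoter peak at 13 of 18 (72.2%), and all 18 had a promoter summit in both replicates, beside 57.1% of all genes. The summits counted for cnn and aurA lay nearer to the TSSs of Golgin97 and CG3281 than to their own. The strongest were stau, an RNA-binding carrier of pros mRNA, with a signal of 958.0, and pins (924.2), Galphai (666.4) and par-6 (648.8), which polarise the dividing cell. Partners and antagonists of proneural proteins had one at 9 of 19 (47.4%), near the 42.6% of all genes. Their strongest were da, the common partner of proneural proteins (850.7), the corepressor gene gro (693.0), sina (687.6) and the Notch effector gene Su(H) (519.7). Genes of glial function had one at 5 of 11 (45.5%), led by drpr (637.0), Cont (546.1), Nrx-IV (528.4) and moody (490.9). Synapse and transmitter genes had one at 3 of 20 (15%), namely Csp (1139), Syx1A (397.3) and Fas2 (212.0).

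A further list of 32 neural transcription factor genes had no promoter peak. A promoter summit in the list of both replicates was at 18 of the 32, beside 34.7% of all genes without a promoter peak. One in both replicate lists was at 12, beside 25.5% of such genes. Over all genes, with or without a peak, these shares were 62.5% and 57.1%. Among the strongest 6415 summits of replicate 3 alone, 3 of the 32 had a promoter summit, and in replicate 1 alone none did. The background for promoter peaks in all 5 lists was the 42.6% of all genes.

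**Figure D4:**
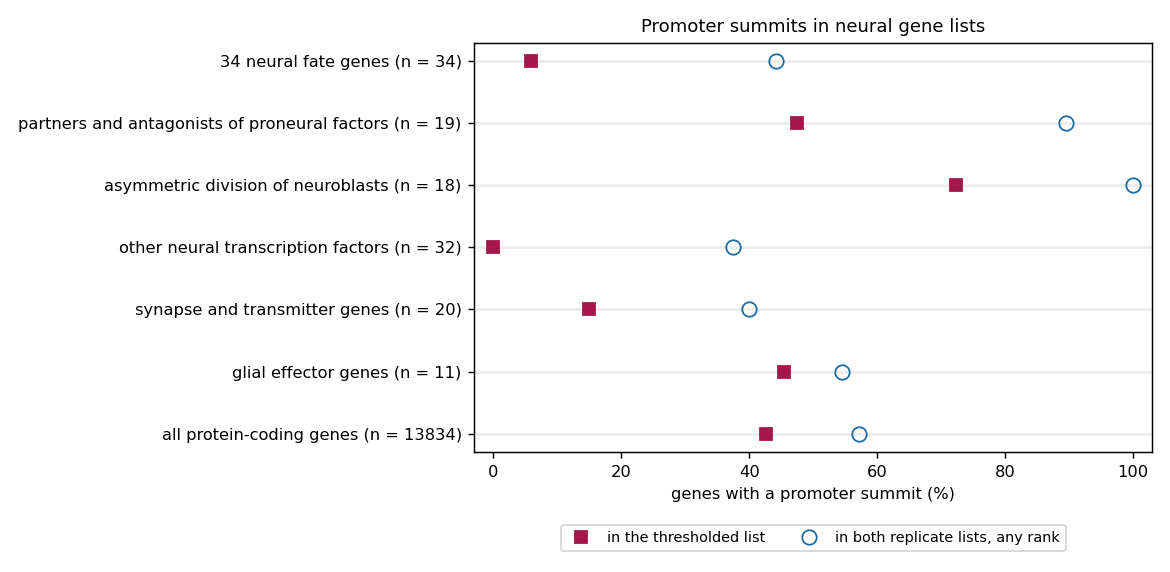
Share of genes with a promoter summit (x axis, percent) in the 34 neural fate genes, 5 lists of other neural genes and all protein-coding genes (y axis), in the thresholded list (squares) and in both replicate lists at any rank (open circles). The neural fate genes stand at 5.88% and 44.1%, division genes at 72.2% for the thresholded list, and all genes at 42.6% and 57.1%.

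Letter strings of core promoters were counted within 100 bp of the canonical TSS on both strands. Motif 1 was at none of the 34 neural fate genes, beside 6.57% of all genes, and was at 14% of genes with a promoter peak and 1.03% of genes without one. The DRE was also at none of the 34, beside 7.56% of all genes, 15.3% with a peak and 1.83% without. A search at every TSS found a single DRE match, at vnd, which is in capitals in the window above. The initiator core was at 17 of the 34 (50%), beside 42.9% of all genes, 32.9% with a peak and 50.3% without.

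The TATA box was at 6 of the 34 (17.6%), beside 28.7% of all genes, 24.1% with a peak and 32.1% without. The GAGA element was at 16 (47.1%), beside 22.5%, 18.1% and 25.8% in the same order. The E-box, a string that proneural dimers can bind, was at ase and ap alone (5.88%), beside 13.9%, 20.3% and 9.09%. At the canonical TSS the GAGA string was the one found more often at neural fate genes than in each of the other sets. At any TSS the initiator core was too, at 64.7% of neural fate genes, beside 49.7% of all genes, 41.8% with a peak and 55.6% without. In the printed windows the GAGA string is seen at elav with 6 copies, at exex with 4 and at sc with 11, and pros has none. These are matches of letters, and binding of the factors was not measured.

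**Figure D5:**
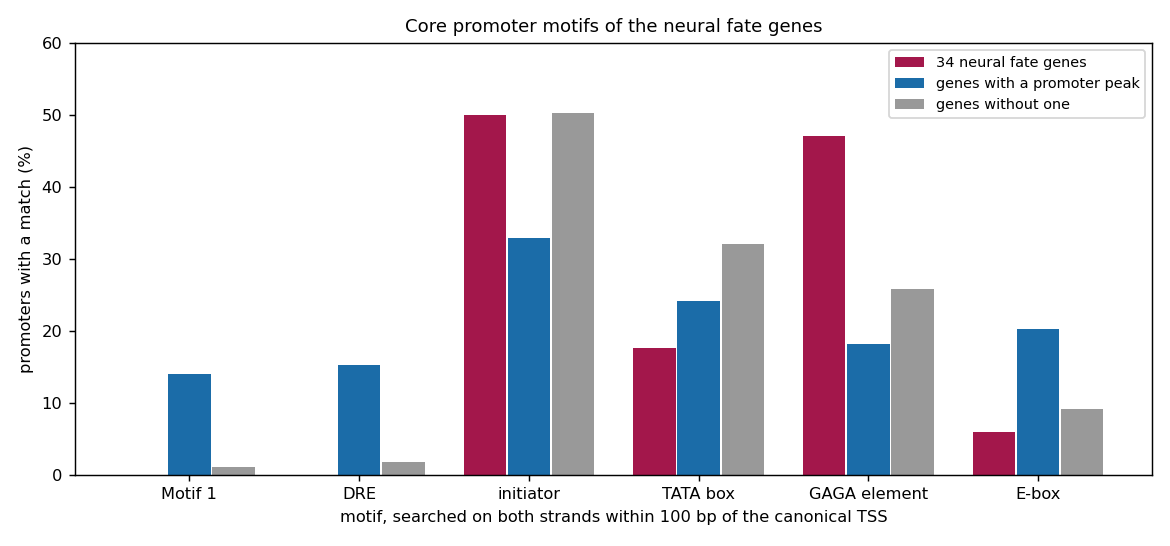
Share of promoters with each letter string within 100 bp of the canonical TSS (y axis, percent) for the 34 neural fate genes, genes with a promoter peak and genes without one. The neural fate genes have no Motif 1 or DRE match and 47.1% have a GAGA match, beside 18.1% of genes with a peak and 25.8% without.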

How the data were processed

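The authors deposited narrowPeak lists in dm6 for replicate 1, replicate 3 and both replicates together, and a thresholded list, per the listing deposited with each sample. The deposited signal (column 7) is a score that the authors set on a scale of its own in each list. The summit (column 10) is the authors' other value used here, a distance from the region start. Chromatin was sonicated to 200 to 800 bp, per the labels. The aligner, the caller, the threshold and the depth are not given in the sources used here. No interval for read sampling could be given.

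Summits were ranked by signal and matched to TSSs of Ensembl release 115 on 6 chromosome arms, leaving out 111 histone cluster genes whose copies share reads. Sequence came from the RefSeq release 6 genome, and 1 gene without a canonical transcript was left out of motif and GC counts. Genes were counted with Python 3.11.15, pandas 2.3.3 and numpy 2.4.6, after the counting was tested on simulated summits; matplotlib 3.10.9 drew the figures. All 34 neural fate genes are named, with up to 4 genes of each other list by strongest promoter peak, and genes that share or lie nearest a summit. The neural fate genes and all lists were chosen with earlier results of these data known, and 2 older symbols were updated. Nothing says that the replicates were separate collections beyond the label biological. Alternatives were other windows, stricter ranks, single replicates, other TSS rules and other motif windows.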

Additional observations from a re-analysis of the deposited data

How the results depend on the processing

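The count of neural fate genes with a promoter peak, 2 as reported, was 1 with a 250 bp window (pros, since the elav summit is 253 bp away), 1 among the 3207 strongest summits (elav), 1 at the canonical TSS alone (elav) and 1 where the peak region had to cover a TSS (pros). It was also 1 with GC at or above the median, an alternative that kept 18 of the 34 genes and was chosen after seeing the data, as was the one on isolated genes. From 1 replicate at a time it ranged from 1 to 3, with elav from replicate 1, and elav, pros and grh from replicate 3. The strongest 15000 summits of each deeper list gave 9 genes in that of both replicates (26.5%, beside 54.3% of all genes), 13 in replicate 1 (38.2%, beside 53.4%) and 11 in replicate 3 (32.4%, beside 54.6%). Leaving out 1000 bp around TSSs kept 1 gene with a thresholded summit inside it, grh, as fewer positions counted. At any TSS the DRE was at 1 gene and the TATA box at 11 (32.4%, beside 33.9% of all genes), as more windows were searched. The list of other neural transcription factors had 1 gene with a 1000 bp window, and 0 to 3 from 1 replicate at a time. The other 38 alternative values were within 1.5 times the reported count. No paired analysis was possible because there was 1 group. The 2 replicates and unknown depth limit how far a missing weak summit can be read.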
